A study of Homo sapiens with 7 samples.

Results

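TBP, the TBP-associated factors of TFIID (TAF1 to TAF13) and both subunits of TFIIA (GTF2A1 and GTF2A2) were targeted by 64 of the 77441 guides in the screen, with 4 guides for each of the 16 genes, out of 19112 genes in all. The guides were taken from the guide table by the gene each was assigned to. The genes were chosen by pathway, but with guide counts of sorted and input cells already known, GTF2A1 being among the enriched genes there. The sorted over input values below are therefore a description, and the calls given with them are not independent evidence.

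HCT116, a human colorectal carcinoma line, carried a GFP splicing reporter at AAVS1 in a clonal line. A CMV promoter drove eGFP, followed by a ribosome-skipping peptide, β-globin (HBB) sequence and OGT exons 4 and 5 with the intron between them, a detained intron whose splicing depends on cellular O-GlcNAc. All cells were transduced with the Brunello knockout library at an MOI of 0.3, grown in puromycin for 8 days from day 2 and given 1 µM thiamet G (TG), an inhibitor of the O-GlcNAc-removing enzyme OGA, for 24 h from day 9, renewed every 12 h. The 3 sorted samples were cells with high GFP collected on day 10, the 3 input samples were the unsorted cells, and 1 further sample measured the guide library. No sorted sample without TG was analysed. GFP level was the readout, so effects on reporter transcription and on reporter splicing cannot be told apart.

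TFIID recognises the core promoter of genes transcribed by RNA polymerase II. Its TBP subunit bends the DNA at the TATA box, and its TAFs contact other promoter elements, modified histones and activators. Many TAFs pair through histone folds, and TAF9, TAF10 and TAF12 are also subunits of SAGA, a histone acetyltransferase coactivator. TFIIA binds TBP and stabilises it on DNA, and general transcription factors of this kind are needed for growth in most human cells.

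Guide targets are shown first for TFIIA, whose gene values, as means over guides, were the most even of the 16 genes between sorted libraries. Lower case letters are the 20 bases matched by the guide, read 5′ to 3′, and capitals are the PAM that follows them in GRCh38. Coordinates cover the 20 bases, and codons are those at the expected cut.
GTF2A1 guide in exon 2 at codon 39, chr14:81216427-81216446, minus strand: agtggatgaacaagtactgaTGG
GTF2A1 guide in exon 4 at codon 118, chr14:81201628-81201647, plus strand: gaatctggaacaataacttgTGG
GTF2A1 guide in exon 6 at codon 193, chr14:81196139-81196158, minus strand: gttataccacaaatgcagccTGG
GTF2A1 guide in exon 7 at codon 239, chr14:81192734-81192753, minus strand: tcaagttatacctacgacagTGG
GTF2A2 guide in exon 3 at codon 31, chr15:59650738-59650757, plus strand: aacttgaagggcaagttgggGGG
GTF2A2 guide in exon 4 at codon 71, chr15:59642227-59642246, minus strand: acagattctgcgataatgtgTGG
GTF2A2 guide in exon 3 at codon 58, chr15:59650671-59650690, minus strand: caggaacagagtcaatttcaGGG
GTF2A2 guide in exon 3 at codon 47, chr15:59650704-59650723, minus strand: taaggctataaatgcagcacTGG

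TBP targets are shown because 1 of its guides had the 4th largest log2 fold change of the 76388 targeting guides tested. The TBP guide at codon 35 differed from the others.
TBP guide in exon 3 at codon 111, chr6:170562052-170562071, plus strand: acgtcccagcaggcaacacaGGG
TBP guide in exon 3 at codon 35, chr6:170561824-170561843, plus strand: ccaatgatgccttatggcacTGG
TBP guide in exon 5 at codon 209, chr6:170566941-170566960, plus strand: gataagagagccacgaaccaCGG
TBP guide in exon 4 at codon 184, chr6:170564595-170564614, minus strand: gtttcgggcacgaagtgcaaTGG

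TAF6 and TAF1 targets are shown because these were the TAFs with the highest and the lowest gene value in sorted cells.
TAF6 guide in exon 7 at codon 212, chr7:100112178-100112197, plus strand: gacaactcgtggatgctccgGGG
TAF6 guide in exon 8 at codon 259, chr7:100111929-100111948, plus strand: gagataaaggtactgaaccgTGG
TAF6 guide in exon 11 at codon 371, chr7:100110231-100110250, plus strand: gagccataacgagtcgtccaGGG
TAF6 guide in exon 3 at codon 69, chr7:100113889-100113908, plus strand: ggcgtagtcaatgtcactggTGG
TAF1 guide in exon 23 at codon 1203, chrX:71397437-71397456, plus strand: catacggactacaaaagatgAGG
TAF1 guide in exon 4 at codon 156, chrX:71375265-71375284, plus strand: gaccaggattctattactggTGG
TAF1 guide in exon 11 at codon 578, chrX:71382812-71382831, plus strand: tattattatcccaagcaacaGGG
TAF1 guide in exon 9 at codon 481, chrX:71381807-71381826, plus strand: tctggtatatggacgctgggAGG

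TAF7 targets were added after values were seen, since TAF7 was the other gene called.
TAF7 guide in the single exon at codon 23, chr5:141319962-141319981, plus strand: acagtagaggcatattctggAGG
TAF7 guide in the single exon at codon 180, chr5:141319505-141319524, minus strand: ctgaagctgttagtactcggTGG
TAF7 guide in the single exon at codon 57, chr5:141319873-141319892, minus strand: gcgtcatggaatcgtcagagTGG
TAF7 guide in the single exon at codon 208, chr5:141319419-141319438, minus strand: ggaatgtctggtcacaggcaGGG

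All 64 guides had 1 perfect site in GRCh38 and were expected to cut in coding sequence, between 5.1 and 64.5% of its length. The TAF6 guide in exon 11 also cut within coding sequence of AP4M1. GC content of the guides ran from 30 to 70%, with a median of 45%.

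Depth was 26155295 to 31047546 reads in the 6 cell libraries and 35774845 in the guide library. Guides with no read made up 0.173 to 0.227% of input and 7.26 to 10.8% of sorted libraries. Correlations over all guides were taken on log2(normalised count + 1). They were 0.858 to 0.919 between pairs of input libraries and 0.322 to 0.348 between pairs of sorted libraries. Numbers 1 to 3 of a library give its position within the deposited values, which do not say which replicate it was. The pilot grown at 100-fold coverage, not the 300-fold of the others, is therefore not marked.

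Both TFIIA genes had more guide reads in sorted than in input cells. Guide levels are normalised counts, the authors' reads scaled by 1 factor per library, listed in the order of libraries 1, 2 and 3. A gene's log2 fold change is the mean over its guides on the log2(normalised count + 1) scale, and it is also given relative to the median gene, which stood at -0.56 and so lay below the input level. GTF2A1, the large subunit that is cleaved into the α and β chains, had a log2 fold change of 1.34 ± 0.23 (SE, 3 libraries a group), or 1.90 relative to the median gene. GTF2A2, the small γ subunit, had 1.35 ± 0.30, or 1.91 relative to the median gene. Their values in sorted libraries 1, 2 and 3, relative to the median gene, were 1.81, 1.68 and 1.70 for GTF2A1. For GTF2A2 they were 1.69, 1.82 and 1.71. The SDs of these values, 0.0708 and 0.0682, were the smallest of the 16 genes, the next being 0.294 for TAF3 and the largest 2.29 for TAF5. On reads summed over a gene's guides, edgeR gave 1.14 for GTF2A1 and 1.25 for GTF2A2 relative to the median gene.

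The GTF2A1 guide in exon 2 was at 177, 197 and 154 normalised counts in input and at 954, 634 and 652 in sorted cells, a 4.25-fold higher mean. The exon 6 guide was at 384, 293 and 245 in input and 999, 559 and 750 in sorted cells, 2.50-fold. For the exon 7 guide, input held 280, 213 and 226 and sorted cells 885, 514 and 658, 2.86-fold. Every sorted value of these guides lay above every input value, and the exon 2 guide was the furthest apart. The exon 4 guide differed least, at 340, 337 and 397 against 442, 436 and 693, 1.46-fold, also without overlap. GTF2A2 had 3 guides of this kind. Its exon 3 guide at codon 31 was at 72.4, 75.3 and 60.7 in input and 314, 142 and 458 in sorted cells, 4.38-fold. Its exon 4 guide was at 584, 377 and 455 in input and at 1170, 1924 and 1316 in sorted cells, 3.12-fold. The guide at codon 47 ran from 238, 221 and 242 to 471, 441 and 459, 1.96-fold, the most even of the TFIIA guides. The guide at codon 58 overlapped between groups, at 171, 93.7 and 98.0 against 301, 190 and 163.

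RRA, a robust rank aggregation of limma's guide p-values, called 2 of the 16 genes higher in sorted cells after Benjamini-Hochberg adjustment over all genes at a threshold of 0.05, namely GTF2A1 (adjusted p = 0.00408) and TAF7 (0.0137). Of all genes, 0.314% were called higher. None of the 16 was called lower, against 0.00523% of all genes, while 2 passed at an unadjusted p, against 5.53%, and 8 passed as higher at an unadjusted p, against 5.47%. The nearest of the 16 genes inside the threshold was TAF7 and the nearest outside was TBP, at 0.155, and GTF2A2 was at 0.269. Both of the nearest genes crossed the threshold in some alternative settings. The RRA adjusted p of TBP ran from 0.0473 to 0.883, with a call in 1 of 15 settings. That of TAF7 ran from 0.00603 to 0.385, with a call in 12 of 15. Limma on the mean over guides called 0 of the 16 higher, against 0.0157% of genes, and 7 at an unadjusted p, against 1.96%. With edgeR's guide p-values in the same ranking 4 genes were called, against 0.424% of all genes, and with those of DESeq2 4, against 0.429%. EdgeR on reads summed per gene called 2, against 0.272%. By limma on the mean GTF2A1 and TAF7 both had an adjusted p of 0.140. The GTF2A1 call was lost without sorted library 1 (RRA adjusted p = 0.190), without sorted library 3 (0.167) and with guides under 200 normalised counts in input removed (0.209).

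TBP, the DNA-binding subunit, had a log2 fold change of 1.76 ± 0.46, or 2.32 relative to the median gene, higher than 99.8% of genes. The value was not called by RRA. Its relative values in sorted libraries 1, 2 and 3 were 2.19, 1.38 and 2.87. The guides differed widely among themselves. The exon 5 guide was at 57.6, 116 and 59.9 normalised counts in input and at 1893, 2178 and 1873 in sorted cells, 25.5-fold higher, with a log2 fold change of 4.73 ± 0.36. The exon 4 guide went from 158, 76.2 and 133 to 195, 285 and 919, 3.81-fold, and the exon 3 guide at codon 111 from 290, 198 and 298 to 1344, 494 and 773, 3.32-fold. These guides did not overlap between groups. The other exon 3 guide, at codon 35, was at 456, 356 and 546 in input and at 472, 24.0 and 948 in sorted cells. Its groups overlapped, with a 1.06-fold ratio of means that rested on a spread from 24.0 to 948 normalised counts. With guides under 200 in input removed, which took out the exon 5 and exon 4 guides, TBP stood at 0.51 relative to the median gene.

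TAF7, which binds TAF1, was at 1.35 ± 0.20, or 1.91 relative to the median gene, with 1.64, 2.28 and 1.30 in sorted libraries 1, 2 and 3, and at 1.07 on summed reads. The guide at codon 23 went from 130, 227 and 259 normalised counts to 1825, 1270 and 1100, 6.81-fold, the furthest apart of the TAF7 guides. The guide at codon 180 went from 338, 374 and 380 to 745, 770 and 698, 2.03-fold, and that at codon 208 from 734, 911 and 742 to 1110, 1987 and 1103, 1.76-fold. These 3 guides did not overlap between groups. The guide at codon 57 overlapped, at 396, 442 and 592 in input and 914, 1294 and 514 in sorted cells. The TAF7 call was lost without sorted library 1 (RRA adjusted p = 0.385), 2 (0.276) or 3 (0.0647).

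TAF1, the largest subunit, with bromodomains and an N-terminal segment that contacts TBP, had the lowest gene value, -2.21 ± 0.81, or -1.65 relative to the median gene. Its sorted libraries stood at -2.24, -2.92 and -0.31. The exon 9 guide was at 60.9, 52.5 and 12.1 normalised counts in input and at 0, 1.14 and 0 in sorted cells. The exon 23 guide went from 84.7, 91.0 and 68.5 to 2.71, 0 and 59.4, and the exon 11 guide from 92.1, 132 and 155 to 18.1, 2.29 and 236. Sorted library 3 held most of the remaining reads of these last guides. The exon 4 guide ran the other way, from 108, 70.9 and 47.7 to 398, 185 and 334, 4.05-fold higher and without overlap. TAF1 guides thus included 1 that was higher in all sorted libraries and 2 that were lower in all of them.

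TAF2, which contacts the DNA around the transcription start, was at -1.30 ± 0.75, or -0.74 relative to the median gene, with -2.55, 0.37 and -0.54 in sorted libraries 1, 2 and 3. Without sorted library 1 it stood at 0.04. Its guides were divided too. The exon 6 guide had 69.1, 50.8 and 57.2 normalised counts in input, from 208 reads, and 0 reads in all 3 sorted libraries, at least 20.03-fold lower when 3 reads are allowed in each sorted library. The exon 13 guide was 6.83-fold higher by means, from 41.1, 56.9 and 29.5 to 39.8, 518 and 313, with sorted library 1 inside the input range. TAF5, a WD40 repeat scaffold of TFIID, stood at -1.71 ± 1.08, or -1.15 relative to the median gene, with -3.40, -1.71 and 1.13 in the 3 sorted libraries. Its 4 guides all overlapped between groups, and their ratios of means ran from 0.690 to 1.85-fold. The direction for TAF1, TAF2 and TAF5 depended on the scale, since edgeR on reads summed over a gene's guides gave 0.16, 0.13 and 0.12 relative to the median gene.

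TAF6, which holds a histone fold and HEAT repeats, had the highest value of the 16 genes, 2.13 ± 0.69, or 2.69 relative to the median gene. RRA gave it an adjusted p of 0.323. Sorted library 1 stood apart, with 0.79 against 3.71 and 3.05 in libraries 2 and 3, and without that library TAF6 was called and GTF2A1 and TAF7 were not. Its exon 8 guide went from 32.9, 50.8 and 16.5 normalised counts to 85.0, 501 and 881, 14.6-fold, and its exon 7 guide from 84.7, 89.3 and 121 to 278, 591 and 808, 5.69-fold. Both were without overlap. The exon 11 guide, from 137, 108 and 232 to 88.6, 690 and 952, and the exon 3 guide, from 85.5, 58.6 and 106 to 85.0, 906 and 113, both overlapped. The exon 3 guide was far above input in sorted library 2 and near it in the others.

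The other histone fold TAFs lay nearer the median gene. TAF4, which forms a pair with TAF12, was at 0.82 ± 0.27, or 1.38 relative to the median gene, with 0.56, 1.85 and 1.23 in sorted libraries 1, 2 and 3. Each of its 4 guides had a higher mean in sorted cells, 1.62 to 2.22-fold, and 2 did not overlap. TAF12 was at -0.0035, or 0.56 relative to the median gene. TAF9, the partner of TAF6, was at -0.44, or 0.12 relative to the median gene. TAF9 gave 0.88, -2.43 and 1.39 in the 3 sorted libraries, with 2 of its guides at 0 and 2.29 normalised counts in sorted library 2. TAF10, which pairs with TAF3 and TAF8, was at 0.06, or 0.62 relative to the median gene, with 0.94, 1.30 and -0.91 in the 3 libraries.

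TAF11, whose partner is TAF13, was at 0.64 ± 0.27, or 1.19 relative to the median gene, and above it in each sorted library. All 4 of its guides had a higher mean in sorted cells, at most 2.04-fold, and 1 did not overlap. TAF13 was at -0.52, or 0.04 relative to the median gene. Its guides were divided, with 2 above input without overlap (1.80 and 1.58-fold) and 1 below without overlap (0.552-fold). TAF3, whose PHD finger reads methylated histone H3, was at 0.22, or 0.78 relative to the median gene. TAF8, which brings TAF2 into the complex, was at -0.92, or -0.36 relative to the median gene. Its relative values in sorted libraries 1, 2 and 3 were -1.55, -1.21 and 1.17. A TAF8 guide at codon 185 held 380, 1.14 and 449 normalised counts in these libraries, with input at 257, 275 and 323. Across the alternative settings TAF8, TAF9 and TAF13 fell on either side of the median gene.

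Of the 16 genes, 8 were above the median gene in each sorted library (TBP, TAF3, TAF4, TAF6, TAF7, TAF11, GTF2A1 and GTF2A2) and TAF1 was below it in each. Of all genes, 17.1% were above and 16.9% below in each. Over single guides, the median log2 fold change was -0.08 for non-targeting and -0.20 for targeting guides. Over gene values, which are means over guides, it was 0.14 for the 16 genes and -0.56 for all genes. Guide and gene medians are unlike measures. Relative to the median of all genes, the median of the 16 genes was 0.70, and 0.58, 1.08 and 1.15 in the single sorted libraries. On that relative scale the 9 histone fold TAFs had a median of 0.62, with 8 of 9 above the median gene, against 9556 of all 19112 genes. Of the 8, TAF9 and TAF13 lay only 0.12 and 0.04 above it, with SEs of 1.03 and 0.45. The other 4 TAFs (TAF1, TAF2, TAF5 and TAF7) had a median of -0.94, with TAF7 above the median gene. TAF9, TAF10 and TAF12, shared with SAGA, had a median of 0.56.

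Among the 64 guides, 24 had every sorted value above every input value, against 9.05% of targeting guides tested, and 4 had every sorted value below, against 7.47%. Limma called 3 guides higher, the TBP exon 5, TAF7 codon 23 and GTF2A1 exon 2 guides, where 0.0929% of guides were called. It called 1 lower, the TAF2 exon 6 guide, where 0.597% were called. At least 3 of 4 guides were above input without overlap for 4 genes, TBP, TAF7, GTF2A1 and GTF2A2, against 0.745% of genes with 4 tested guides.

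Values of 0 in sorted cells lower a gene's value by construction, since that value is a mean of log2(normalised count + 1) over guides. They made up 12 of the 192 sorted values of the 64 guides (6.25%, against 8.71% for all targeting guides), and none of the input values was 0. These fell on 8 guides of TAF1, TAF2, TAF5, TAF8, TAF9 and TAF13, with a median input of 88.5 normalised counts, against 232 for the other 56 guides. Sorted libraries 1, 2 and 3 held 4, 6 and 2 of them. With a pseudocount of 10 in place of 1, which gives values of 0 less weight, TAF1 stood at -0.70, TAF2 at -0.18 and TAF5 at -0.50 relative to the median gene.

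Related gene lists are given by counts and medians in the same comparison. TFIIB, TFIIE, TFIIF and TFIIH, which join the promoter after TFIID and TFIIA, had a median of -0.00 relative to all genes, and 0 of 15 genes was called. CCNH, the cyclin of the TFIIH kinase, had the smallest p among them, at 1.63 relative to the median gene (RRA adjusted p = 0.0543), and it was called in 3 of 15 alternative settings. The 12 RNA polymerase II subunits had a median of -0.37 and no call. The 9 paralogues of the genes described, such as GTF2A1L, TAF6L and TAF5L, had a median of -0.29 and no call. TAF5L and TAF6L are also SAGA subunits and count in the list of SAGA subunits outside TFIID too. GTF2A1L, the germ cell counterpart of GTF2A1, was at -0.05 and GTF2A1 at 1.90.

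SAGA subunits outside TFIID had a median of 0.32, and 0 of 15 genes was called, with CCDC101, a subunit of the acetyltransferase module, nearest (1.63, RRA adjusted p = 0.0596). CCDC101 was called in 5 of 15 alternative settings and KAT2A, the acetyltransferase, in 1. Proteins that work with TBP outside TFIID, in SL1, TFIIIB, SNAPc and NC2 among others, had a median of 0.88. RRA called 1 of 15, SNAPC2, a subunit of the complex that binds snRNA promoters, at 1.61 (adjusted p = 0.0274). That call was lost without any 1 of the sorted libraries, without input library 2, and with guides under 200 normalised counts in input removed. TBP itself, at 2.32, lay above the highest of these partners.

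Input cells were also set against the guide library, which gave the guide levels at the start. By the series text the guide library sample was unselected cells, and by the study's methods it was the DNA preparation. Values are log2 ratios of reads, centred on the median guide and averaged over a gene's guides, and they carry no test, since there was 1 guide library. The ± values are SDs over the 3 input libraries and so leave out the error of the guide library. These ratios share their input libraries with the comparison above, so no relation between the 2 measures is given. The median of the 16 genes was -0.38, a 0.770-fold level, against -0.04 for all genes. In all 3 input libraries, 14 of the 16 genes lay below the median guide, against 37.7% of all genes. Single guides did so for 36 of the 64, against 33% of all targeting guides.

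TAF6 and TAF1 guides were the scarcest in input, at -1.14 ± 0.11 and -1.14 ± 0.41, or 0.454 and 0.455-fold, with 1.06 and 1.07% of genes lower. They were the 2 genes under a log2 ratio of -1, against 1.63% of all genes. The 4 TAF6 guides agreed closely, from -1.24 to -0.93, while the TAF1 guides ran from -1.63 to -0.60. TAF2 followed at -0.91 ± 0.10, with its exon 6 guide at -2.17 and its exon 8 guide at -0.03. TAF4 was at -0.58 ± 0.12, with 2 guides near the median guide (0.05 and 0.10) and 2 far below it (-1.25 and -1.21).

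GTF2A1 was at -0.50 ± 0.12 and GTF2A2 at -0.47 ± 0.21, 0.706 and 0.722-fold, a difference smaller than the spread of either. The GTF2A1 exon 6 guide fell by 1.12 and its exon 4 guide by 0.08, whereas for GTF2A2 the guide at codon 58 stood at -1.19 and that in exon 4 at -0.13. TBP was at -0.38 ± 0.15, with guides from -1.15 to 0.28. TAF5 at -0.43, TAF12 at -0.37, TAF11 at -0.34 and TAF7 at -0.27 lay within 1 SD of their neighbours in this order. TAF9 was at -0.22, TAF10 at -0.14 and TAF8 at -0.08.

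TAF3 and TAF13 guides were the only ones of the 16 genes with a mean above the median guide in input. TAF3 was at 0.17 ± 0.13. TAF13 was at 0.51 ± 0.14, a 1.42-fold level above that of 97.1% of genes, between 0.37 and 0.64 in the 3 input libraries. Its guides stood at 0.60, 0.99, -0.04 and 0.48. Among the related lists the median ratio was -0.92 for RNA polymerase II subunits, -0.28 for TBP partners outside TFIID and -0.16 for the other general transcription factors. It was 0.01 for SAGA subunits outside TFIID and -0.02 for the paralogues.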

How the data were processed

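Guide abundance was measured by sequencing 3 input, 3 sorted and 1 guide library sample. Per the labels, the authors used FastQC 0.11.9 for quality, cutadapt 3.3 for trimming and MAGeCK for counting and testing, with reads mapped to the Brunello guide sequences. The deposited guide table holds other values in each cell, a normalised count for each of 3 libraries joined by slashes, and a second deposited table holds each guide's raw count in the guide library. In every cell library the low values were multiples of the worth of 1 read (tolerance 0.1 read), which gave reads and depth. Reads carry no molecular identifiers. The number of per-sample columns not used was 0. The authors' own fold changes, p-values and scores of sorted against input, per guide and per gene, were not used.

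Of 77441 guides, 77388 (76388 of them targeting) entered the tests, and guides without a read in any of the 6 cell libraries did not. Guides were tested with limma 3.58.1 (R 4.3.3, lmFit and eBayes with trend) on log2(normalised count + 1). One-sided guide p-values were combined per gene by RRA (alpha 0.25), with Benjamini-Hochberg adjustment over 19112 genes. Gene fold changes and SEs came from limma on the mean over guides. The spread behind limma's p-values is that between samples the labels call biological replicates, while RRA takes its null over guides. The added count of 1 understates fold changes of guides with low values in all libraries. A value of 0 in a single sorted library instead enlarges a guide's fall. The TAF5 exon 1 guide, for example, had a log2 fold change of -3.16 with a 0.751-fold ratio of means. Input over guide library is log2((reads + 1)/(library reads + 1)), with python 3.11.15. Alternatives included edgeR 4.0.16 and DESeq2 1.42.0 on recovered reads. Sequences are Brunello guides matched to GRCh38 as 20 bases followed by NGG, with GENCODE 44.

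The genes, related lists and tests were chosen with earlier results of these data known. All 16 genes are named. Guides are printed for GTF2A1, GTF2A2, TBP and the TAFs with the highest and lowest gene value, TAF7 guides were added after its values were seen, and at most 3 genes of smallest p are named per related list.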

Additional observations from a re-analysis of the deposited data

How the results depend on the processing

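The median of the 16 genes relative to all genes stayed between 0.49 and 0.98 under every alternative that gave a fold change. The number of the 16 genes called higher in sorted cells, 2 in the test as reported, was 0 with limma on the mean over guides and 1 (TAF7, of 13 genes tested) with a filter of 200 normalised counts in input, which was chosen after seeing the data. It was 4 with edgeR per guide (TBP, TAF6, TAF7 and GTF2A1) and 4 with DESeq2 per guide (TAF6, TAF7, GTF2A1 and GTF2A2), was 3 without the highest guide of each gene (TAF7, GTF2A1 and GTF2A2), and ranged from 0 to 2 with 1 library left out. Without sorted library 1 it was 1 (TAF6), without 2 it was 1 (GTF2A1) and without 3 it was 0. The cause was not tested. EdgeR on reads summed over guides called 2, TBP and GTF2A2. For TBP, its exon 5 guide held 271 input and 6079 sorted reads. Its other guides each held 432 to 1591 input and 1486 to 2777 sorted reads. Among all genes, 60 were called higher as reported and 73 without the highest guide of each gene. The filter of 200 gave 19, limma on gene means 3, edgeR per guide 81, DESeq2 per guide 82 and edgeR on summed reads 52. Without sorted library 1, 2 or 3 the count was 49, 19 or 20. The median gene moved with the scaling and pseudocount, from -0.56 to -0.77 with equal totals, -0.30 with a pseudocount of 10 and 0.03 with summed reads, so values are given relative to it. The median input over guide library ratio of the 16 genes, -0.38 as reported, ranged from -0.43 to -0.35 with 1 input library left out. Centred on non-targeting guides it was -0.67, and that of all genes was -0.33. No paired analysis was possible because no replicate number goes with the deposited values, and the replicate block was not run. Whether few input reads limited the precision of a guide's sorted values was not tested.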
